A study of Homo sapiens with 28 samples.

Results

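The genes of the cytosolic ribosomal proteins were examined for ZHX2, CTCF, acetylated histone H3 lysine 27 (H3K27ac) and Flag-tagged ZHX2 in T47D cells. Members were the protein-coding genes whose symbol is RPL or RPS followed by a number, with or without a closing A, X, L or Y and digit, together with RPLP0, RPLP1, RPLP2 and RPSA. The rule took 83 symbols, of which 2, RPS4Y1 and RPS4Y2, lie on chromosome Y and were not examined. The 81 members left, among 19839 protein-coding genes on chromosomes 1 to 22 and X, were 49 genes of the large subunit (RPL) and 32 of the small subunit (RPS). They were spread over 21 chromosomes, with 12 on chromosome 19 and 8 on chromosome 3.

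T47D is an established luminal breast cancer line. Chromatin immunoprecipitation and sequencing (ChIP-seq) was run on cells kept in normoxia or treated in a hypoxia workstation, with antibodies to ZHX2, CTCF and H3K27ac, and on hypoxic cells with WT or PA ZHX2 with an antibody to Flag. The meaning of PA, the oxygen level and the duration of hypoxia are not given in the sources used here. Cells infected with lentivirus were selected with hygromycin or puromycin, per the labels' protocols, and which groups were infected is not stated. Of the 28 samples, 16 made up 8 immunoprecipitated groups of 2, and the other 12 had no antibody. Each immunoprecipitated group came with 1 peak list and no value per replicate, so no difference between conditions or between WT and PA has a replicate check and none was tested. The labelled cell type was looked at through H3K27ac within 1 kb of gene ends: of 9 luminal markers 8 held it in normoxia and 9 in hypoxia, against 1 of 5 basal or myoepithelial markers (ACTA2) and 2 of 6 immune and stromal markers (CD3E and COL1A1) in both conditions.

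The cytosolic ribosome is built from a small subunit, which decodes the messenger RNA, and a large subunit, which forms peptide bonds. Its proteins are made in equal amounts from dispersed, strongly transcribed genes, and many of their messenger RNAs begin with a cytosine and a run of pyrimidines, the 5′ terminal oligopyrimidine (TOP) motif, through which mTORC1 and LARP1 control translation. Several members also act outside the ribosome: RPL5 and RPL11 bind MDM2 and so stabilise p53 when ribosome assembly fails. ZHX2 carries zinc fingers and homeoboxes and is a substrate of the VHL ubiquitin ligase, CTCF binds DNA at chromatin loop anchors and many promoters, and H3K27ac marks active promoters and enhancers.

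The starts of these genes are shown first because most of the ZHX2 peaks lay on them. RefSeq promoters (GRCh38.p14, 250 bases before to 50 after the start) were at hand for 64 members and 15812 protein-coding genes in all. The start of the promoter entry was the annotated gene start in 62 of the 64. At RPL27 and RPL6 it lay inside the annotated gene. Sequences use the start of the promoter entry, and distances of peaks the annotated gene start. The stretches below run 5′ to 3′ on the transcribed strand from 40 bases before to 20 bases from the start, and capitals mark the unbroken run of pyrimidines through the start. The first 5 belong to the members, among the 64, with the highest hypoxia ZHX2 peaks, the next 2 to members with ZHX2 in the normoxia list alone, and the last to a member in neither ZHX2 list.
RPS27: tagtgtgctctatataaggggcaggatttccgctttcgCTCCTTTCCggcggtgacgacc
RPL13A: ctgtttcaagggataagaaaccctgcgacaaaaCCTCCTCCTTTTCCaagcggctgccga
RPL41: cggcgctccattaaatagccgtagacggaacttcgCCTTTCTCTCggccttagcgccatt
RPL12: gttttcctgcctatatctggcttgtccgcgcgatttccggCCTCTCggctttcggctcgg
RPS18: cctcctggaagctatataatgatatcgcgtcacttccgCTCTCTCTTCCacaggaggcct
RPS7: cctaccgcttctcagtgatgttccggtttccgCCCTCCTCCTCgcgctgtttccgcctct
RPL11: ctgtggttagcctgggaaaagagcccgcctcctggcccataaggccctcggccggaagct
RPL34: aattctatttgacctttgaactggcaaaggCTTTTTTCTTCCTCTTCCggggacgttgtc
In the same order these are chr1:153990722-153990781 on the plus strand, chr19:49487568-49487627 (plus), chr12:56116593-56116652 (plus), chr9:127451387-127451446 (minus), chr6:33272035-33272094 (plus), chr2:3575220-3575279 (plus), chr1:23691739-23691798 (plus) and chr4:108620536-108620595 (plus). RPL34, with neither a ZHX2 nor a CTCF peak, had a run of 18 pyrimidines, RPL13A one of 14, and RPL11, whose listed start is an adenine, none.

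Pyrimidine starts were common among the members. A cytosine stood at the start of 46 of the 64 (71.9%, against 11.3% of all promoters), and in 42 of them 4 more pyrimidines followed (65.6% against 4.59%). The median run through the start was 10 bases, against 0 over all promoters, and the longest was 25, at RPL7A. The TCT initiator, searched on the transcribed strand as CTTTCT or else CTTTTC, and further as CCTTTC or else TCTTTC, lay between 5 bases before and 10 from the start in 29 members (45.3% against 2.33%). These 4 words overlap the pyrimidine run. A cytosine with 4 pyrimidines was held by 25 of 39 large-subunit and 17 of 25 small-subunit promoters, and by 36 of 52 members with a hypoxia ZHX2 peak and 6 of 12 without. The TCT words were held by 26 of 52 (50%) and 3 of 12 (25%).

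Words of the kind bound by ETS factors were the other frequent feature. GGAAGT or CGGAAG, which overlap in CGGAAGT, lay on either strand within the 300 bases in 45 members (70.3%, against 38% of all promoters). They are shown in capitals, from 80 bases before to 20 from the start, for 2 small-subunit members with a hypoxia ZHX2 peak and for RPL36A, in neither ZHX2 list, and RPL27, in both.
RPS14: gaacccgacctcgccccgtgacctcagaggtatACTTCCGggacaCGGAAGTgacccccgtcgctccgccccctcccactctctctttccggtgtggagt
RPS6: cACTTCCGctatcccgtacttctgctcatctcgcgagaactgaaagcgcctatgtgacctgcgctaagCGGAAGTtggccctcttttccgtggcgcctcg
RPL36A: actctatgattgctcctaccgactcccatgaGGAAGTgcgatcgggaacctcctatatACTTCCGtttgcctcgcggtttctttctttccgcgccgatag
RPL27: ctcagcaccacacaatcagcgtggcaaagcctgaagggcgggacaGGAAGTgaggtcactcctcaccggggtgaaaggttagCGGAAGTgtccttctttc
They lie at chr5:150449720-150449819 (minus), chr9:19380217-19380316 (minus), chrX:101390931-101391030 (plus) and chr17:42998339-42998438 (plus). All 4 of these promoters hold the word at least at 2 places. Members with and without a hypoxia ZHX2 peak held it in 37 of 52 (71.2%) and 8 of 12 (66.7%). The YY1 word AAGATGGCG lay in 5 members (7.81% against 2.69%), the word ACGTG, which is the core of the hypoxia response element and lies within the E-box CACGTG, in 19 (29.7% against 23.7%), and the E-box itself in 3 (4.69% against 8.82%). TATAAA was found in 6 (9.38% against 9.75%), the GC box GGGCGG in 36 (56.2% against 58.3%) and AGGGGGC, part of the CTCF motif, in 5 (7.81% against 17.7%). The ACGTG word was less frequent in members with a hypoxia ZHX2 peak, 13 of 52 (25%), than in those without, 6 of 12 (50%), and so was the GC box, 27 of 52 (51.9%) and 9 of 12 (75%). These words were searched on both strands, and a match is a description of the letters alone. Only 12 members with a promoter entry lacked a hypoxia ZHX2 peak. The splits by ZHX2, here and above, therefore rest on few genes and were not tested.

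ZHX2 lay at 44 of the 81 members in normoxia and at 68 in hypoxia. That is 54.3% in normoxia, against 29.6% of all protein-coding genes, and 84% in hypoxia, against 56.2%. Peaks within 1 kb of either annotated gene end were counted. CTCF lay at 62 members in both conditions, 76.5%, against 61.9% of all genes in normoxia and 59.5% in hypoxia. H3K27ac lay at 80 members in both conditions, 98.8%, against 64.3% and 65.2% of all genes, and the exception was RPL10L. Flag lay at 79 members with WT ZHX2, 97.5% against 58.4%, and at 78 with PA, 96.3% against 50.1%. The members are nearly all acetylated genes, so the shares were also taken among the 12644 genes with H3K27ac in both conditions. There ZHX2 lay at 53.8% of the members against 41.4% of all genes in normoxia and at 85% against 81.1% in hypoxia, CTCF at 76.2% against 81.1% in normoxia and 76.2% against 79.4% in hypoxia, and Flag at 98.8% against 86.9% with WT and 97.5% against 76% with PA.

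**Figure D1:**
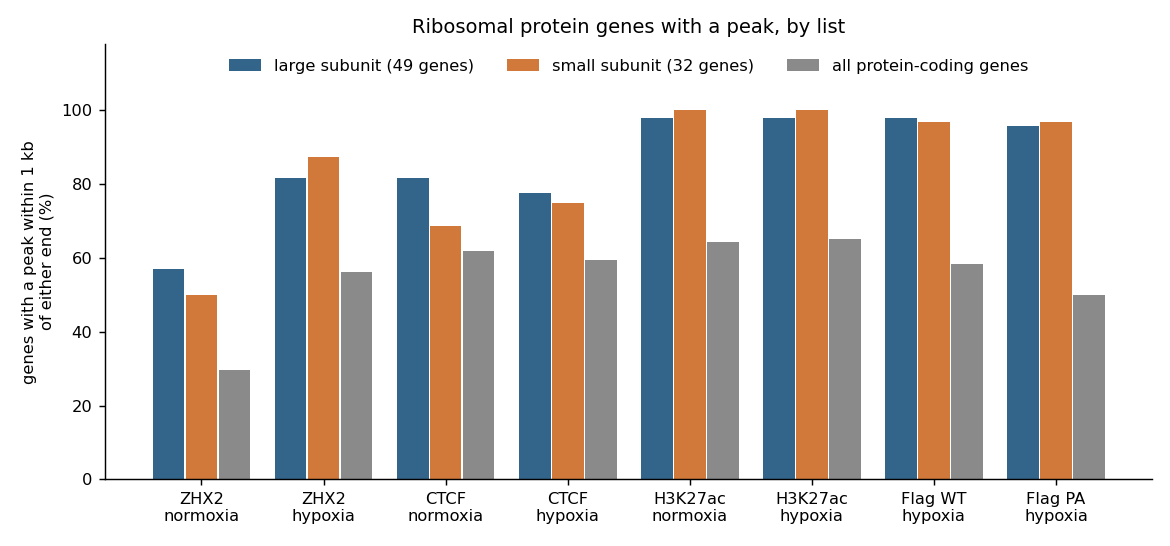
Share of large-subunit genes, small-subunit genes and all protein-coding genes with a peak within 1 kb of either gene end (vertical axis, percent) in each of the 8 peak lists (horizontal axis). In every list both subunits stand above all protein-coding genes, from 57.1% and 50% in normoxia ZHX2 to 98% and 100% in H3K27ac.

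Shares in large-subunit and small-subunit genes were within 12.9 percentage points of each other in every list. In normoxia ZHX2 lay at 28 of 49 large-subunit genes and 16 of 32 small-subunit genes, a difference of 7.14 percentage points (large minus small) with a 95% Newcombe interval of -14.3 to 27.9, which covers counting error over genes only. In hypoxia the counts were 40 and 28, a difference of -5.87 points (-20.9 to 11.8). For CTCF they were 40 and 22 in normoxia (12.9 points, -5.71 to 32.1) and 38 and 24 in hypoxia (2.55 points, -15.3 to 22.1). For H3K27ac they were 48 and 32 in both conditions (-2.04 points, -10.7 to 8.81), for WT Flag 48 and 31 (1.08 points, -7.94 to 13.8) and for PA Flag 47 and 31 (-0.957 points, -10.9 to 12). All 8 intervals include 0, which does not show that the subunits are alike, since each also includes differences of several points.

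Peaks in all 8 lists were found at 34 of the 81 members, against 3711 of all 19839 genes (18.7%). No member was without a peak in any list, against 22% of all genes. These shares were not taken among acetylated genes. Ordered by the authors' fold enrichment of their hypoxia ZHX2 peak, the first 8 of the 34 included RPL41, the shortest ribosomal protein (7.57), RPL12, at the base of the ribosomal stalk (7.12), RPS18 (6.92), RPS20 (6.37), RPL4 (6.27), RPL22 (5.58) and RPS2 (5.58). At the other end RPL10L had peaks in 3 lists, and RPL34, RPL19, RPL17 and RPS9 in 4, which were those of H3K27ac and Flag.

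**Figure D2:**
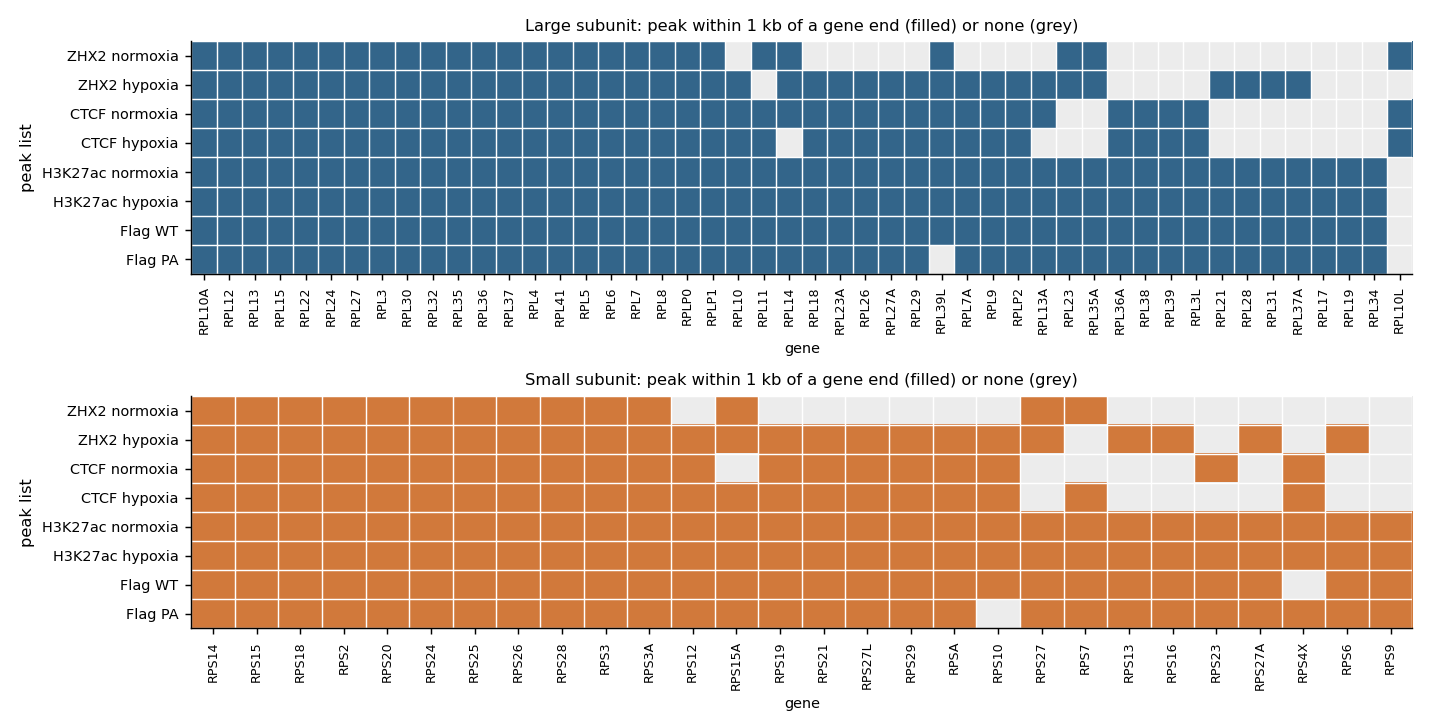
Presence (filled) or absence (grey) of a peak within 1 kb of a gene end for 48 large-subunit genes (upper panel) and 28 small-subunit genes (lower panel) in the 8 peak lists, with genes ordered by the number of lists. The H3K27ac and Flag rows are almost full, and most gaps lie in the ZHX2 and CTCF rows.

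By condition, 41 members held ZHX2 in both lists (50.6%, against 27.8% of all genes), 27 in hypoxia alone (33.3% against 28.4%), 3 in normoxia alone (3.7% against 1.84%) and 10 in neither (12.3% against 41.9%). Among genes with H3K27ac in both conditions the share in hypoxia alone was lower for the members than for all genes, 33.8% against 41.1%, and the share in both ZHX2 lists higher, 51.2% against 39.9%. The 27 were 14 large-subunit and 13 small-subunit genes. The 8 among them with the highest authors' fold in the hypoxia list were RPL13A (9.22), RPL10 (5.39), which joins the large subunit late in its assembly, RPL18 (5.33), RPSA (4.87), RPL27A (4.62), RPS10 (4.33), RPL26 (4.05) and RPS27A (4.01), whose protein is made as a fusion with ubiquitin. The 3 in normoxia alone were RPS7, RPL11 and the intronless paralog RPL10L. The 10 in neither were RPL34, RPS23, RPL3L, RPL19, RPL38, RPL17, RPS9, RPS4X, RPL36A and RPL39. The hypoxia list held 32343 ZHX2 peaks and the normoxia list 14586, and with both reduced to the length of the shorter, 16 members were in hypoxia alone (19.8%, against 15.7% of all genes) and 7 in normoxia alone (8.64% against 5.95%).

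RPS27, a small-subunit protein with a zinc finger, had the highest ZHX2 peak of any member. Its peak had a fold of 15.8 in hypoxia, higher than 99.5% of that list, and 4.62 in normoxia, higher than 83.9% of its own list. Folds and percentiles of lists that differ in length cannot be set against each other, and they are given to rank peaks within a list. The hypoxia peak was 1723 bp wide and the normoxia peak 908 bp, with summits at -72 and -74 bp from the start (negative is before it). RPS27 had no CTCF peak in either condition, H3K27ac folds of 16.4 in normoxia and 12.3 in hypoxia, and a Flag peak of 2863 bp with the same start and end in WT and PA. The peak also lies within 1 kb of RAB13.

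RPL13A, a large-subunit protein that also takes part in the translational silencing of inflammatory messenger RNAs, had no ZHX2 peak in normoxia and one with a fold of 9.22 in hypoxia (706 bp, summit at -174 bp, higher than 98.4% of the list). Its only CTCF peak was in normoxia, with a fold of 6.13. The H3K27ac fold was 21.3 in normoxia and 14 in hypoxia, and the Flag peak of 4687 bp was the same in WT and PA. The annotated end of FLT3LG also lies within 1 kb of the ZHX2 peak.

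The DNA under 4 of these summits is given to show what lay there, 30 bases to either side on the transcribed strand, with the 11 central bases in capitals. The normoxia summit is shown for RPS7 and the hypoxia summit for the others.
RPS27: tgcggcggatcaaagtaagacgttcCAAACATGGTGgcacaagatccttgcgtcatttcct
RPL13A: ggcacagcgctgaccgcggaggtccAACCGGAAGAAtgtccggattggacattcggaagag
RPL12: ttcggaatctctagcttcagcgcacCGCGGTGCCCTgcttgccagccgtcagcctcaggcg
RPS7: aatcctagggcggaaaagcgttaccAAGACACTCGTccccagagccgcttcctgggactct
They lie at chr1:153990660-153990720 (plus), chr19:49487404-49487464 (plus), chr9:127451522-127451582 (minus) and chr2:3575152-3575212 (plus). At RPL13A the central bases contain the ETS word CGGAAG. RPL12 had ZHX2 folds of 2.87 in normoxia and 7.12 in hypoxia, and low CTCF peaks of 5.18 and 5.76.

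RPS7 and RPL11 were in the normoxia ZHX2 list alone, as was RPL10L. The RPS7 peak (382 bp, summit at -78 bp) had a fold of 5.04, the highest of any member in normoxia and higher than 87.8% of the list. CTCF at RPS7 had the opposite pattern, with no peak in normoxia and one of fold 4.72 in hypoxia, with its summit at -91 bp. H3K27ac was held in both conditions (12 and 12.2), and the Flag peak of 1250 bp was the same in WT and PA. The RPL11 peak (201 bp, fold 4.13) had its summit 983 bases into the gene, while its CTCF peak lay on the start in both conditions (120 and 101). RPL5, which binds the 5S ribosomal RNA with RPL11, had ZHX2 folds of 4.61 in normoxia and 2.88 in hypoxia and CTCF folds of 242 and 238.

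**Figure D3:**
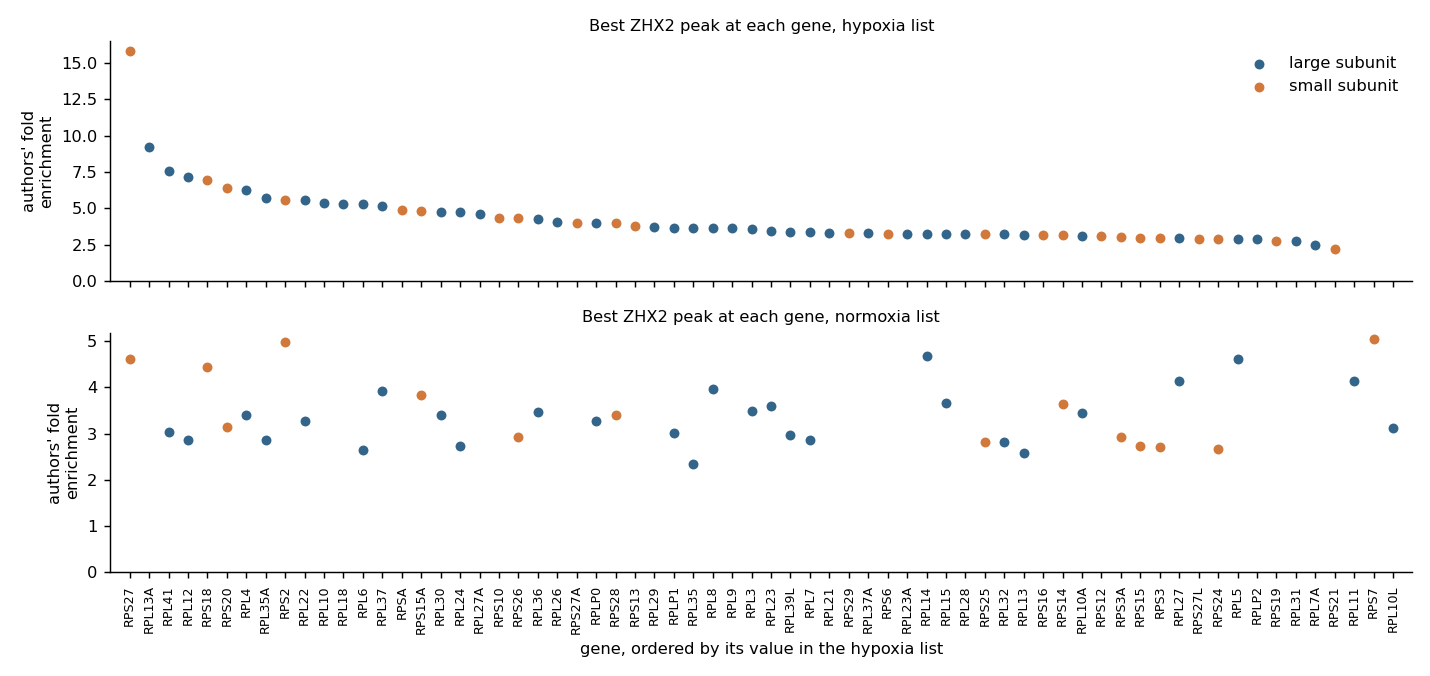
The authors' fold enrichment of the best ZHX2 peak at the members shown that had one (vertical axes, linear, separate scales) in the hypoxia list (upper panel) and the normoxia list (lower panel), with genes on the horizontal axis in the order of the hypoxia list. RPS27 stands apart in hypoxia at 15.8, normoxia values end at 5.04, and a missing point is a gene without a peak in that list.

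The median ZHX2 fold at members was below that over all genes with a peak in both lists. In normoxia the median fold of the best peak was 3.26 (n = 44 genes, range 2.34 to 5.04), against 3.64 over all genes with a peak, and 0 of the 44 were in the top 10% of the list, against 16% of all genes with a peak. The 5 highest were RPS7, RPS2 (4.97), RPL14 (4.68), RPS27 and RPL5. In hypoxia the median was 3.63 (n = 68, range 2.19 to 15.8) against 3.97, and 12 were in the top 10%, 17.6% against 22.1%. The large-subunit and small-subunit medians were 3.33 and 3.03 in normoxia and 3.63 and 3.64 in hypoxia.

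Among members linked to disease or regulation, RPS14, the gene lost in the 5q- syndrome, had ZHX2 folds of 3.64 and 3.14 and CTCF folds of 177 and 151, in normoxia and hypoxia in that order. RPS19, the gene most often mutated in Diamond-Blackfan anaemia, had a ZHX2 peak in hypoxia alone (2.77). Its CTCF folds were 203 and 161 at the far end and 44.1 and 36.5 near the start. RPS6, the substrate of S6 kinase, had a ZHX2 peak in hypoxia alone (3.26) and no CTCF peak. RPSA, also known as the laminin receptor, had 2 hypoxia-only ZHX2 peaks (4.87 and 3.96) and CTCF folds of 33.3 and 38.5. RPLP0, the core of the ribosomal stalk, held ZHX2 in both conditions (3.26 and 3.99), and RPL3, which reaches towards the peptidyl transferase centre, did so too (3.48 and 3.59). These 6 genes held H3K27ac in both conditions, with folds between 9.89 and 18.1, and identical widest Flag intervals in WT and PA.

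Members with a paralog, or that are the paralog, are given here one by one. RPL10L, a testis paralog of RPL10, had no H3K27ac and no Flag peak, a normoxia ZHX2 peak of fold 3.12 and CTCF folds of 46.3 and 41.2. RPL3L, the paralog of RPL3 in muscle, had no ZHX2 peak, CTCF folds of 8.03 and 7.17, H3K27ac folds of 11.2 and 9.38 and a Flag peak of 2132 bp in WT and PA, all of which also lie within 1 kb of an end of its neighbour MSRB1. RPL39L had ZHX2 (2.96 and 3.38), CTCF (291 and 181) and H3K27ac (13 and 10.2) in both conditions, and a Flag peak of 654 bp in WT alone. RPS27L, a p53 target, had ZHX2 in hypoxia alone (2.89) and the highest H3K27ac fold of any member in hypoxia (24.1). RPS4X, the X-linked copy of a gene with Y-linked counterparts, had CTCF at its start (97.9 and 62.5), H3K27ac (8.54 and 6.92), no ZHX2 peak and no WT Flag peak. Of the later paralogs outside the symbol rule, RPL7L1 had ZHX2 folds of 6.97 and 10.9, RPL22L1 of 2.1 and 4.06 and RPL36AL of 4.08 and 4.95, and RPL26L1 had no peak in any list.

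Peaks with no overlapping peak in the partner list, called condition-only here, made up 7 of the 54 normoxia ZHX2 peaks at members (13%, against 13.6% of all gene-end peaks of that list) and 48 of the 95 hypoxia ZHX2 peaks (50.5% against 59.8%). The normoxia share was near that of all gene-end peaks and the hypoxia share below it. The 48 hypoxia-only peaks lay at 36 members, 20 large and 16 small, and the 5 with the highest fold were those at RPL13A, RPL10, RPL18, RPSA and RPL27A, in that order. The 7 normoxia-only peaks were at RPS7 (5.04), RPL11 (4.13), RPLP0 (3.26), RPL8 (3.24), RPL10L (3.12), RPL32 (2.81) and RPL35A (2.45). RPLP0, RPL8, RPL32 and RPL35A also held hypoxia ZHX2 peaks elsewhere near their ends. With lists of equal length 14 of 54 were normoxia-only (25.9% against 28.1%) and 22 of 61 hypoxia-only (36.1% against 45.3%).

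ZHX2 lay at the starts of more members than at their far ends. Of 50 members of at least 3 kb with a known strand, 22 held a normoxia ZHX2 peak within 1 kb of the start (44%, against 28.1% of 14400 such genes) and 3 within 1 kb of the far end (6% against 3.65%). In hypoxia 39 held one at the start (78% against 57.5%) and 7 at the far end (14% against 5.94%), namely RPL35A, RPS18, RPL27A, RPLP0, RPL4, RPL13 and RPL26. All 7 also held one at the start. RPS18 shows both: in hypoxia its peak near the start had a fold of 5.33 and its peak past the far end, which also lies within 1 kb of an end of B3GALT4, a fold of 6.92. Of all 81 members, 30 had an end of another protein-coding gene within 1 kb of one of their own, and a peak there counts for both.

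The summit of the nearest ZHX2 peak was at a median of -74 bp from the start in normoxia (31 genes) and -35 bp in hypoxia (52 genes), against medians of 39 and -5 bp over all genes with a strand. In hypoxia 44 of the 52 summits were within 250 bp of the start (84.6%, against 69.8% over all genes), and in normoxia 23 of 31 (74.2% against 61.3%). CTCF summits had medians of -91 (43 genes) and -111 (45 genes). The RPL10 summit in hypoxia lay at 64 bp, that of RPS10 at 35 bp, that of RPL18 at -167 bp and that of RPLP0 at -274 bp.

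**Figure D4:**
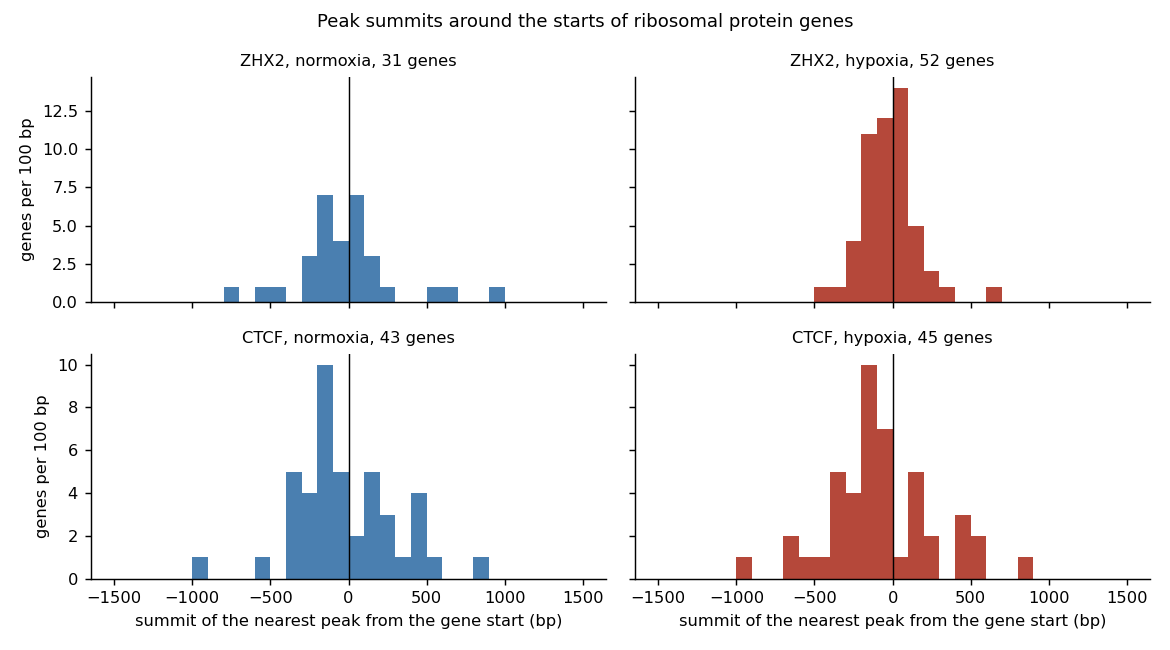
Number of members (vertical axes) by the distance in bp from the gene start to the summit of the nearest peak (horizontal axis, 100 bp bins, negative is before the start) for ZHX2 (upper panels) and CTCF (lower panels) in normoxia (left) and hypoxia (right). Hypoxia ZHX2 summits run from -408 to 667 bp and gather around the start.

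CTCF peaks at members had a higher median fold than those over all genes. The median fold of the best peak was 54.9 in normoxia (n = 62 genes), against 21.9 over all genes with a peak, and 43.8 in hypoxia (n = 62) against 16.6. In the top 10% of the list were 20 of 62 members in normoxia (32.3% against 18.2%) and 17 of 62 in hypoxia (27.4% against 16.5%). The large-subunit medians were 73.5 and 87.9 and the small-subunit medians 30 and 22.7, in normoxia and hypoxia, over ranges from 3.59 to 508 and from 2.61 to 412 for all members. Among the 5 highest in normoxia were RPL10A (508), RPL36 (418), RPL23A (413) and RPL4 (408), and in hypoxia RPL10A (412), RPL36 (331), RPL38 (313) and RPL23A (311). The best peak could lie at either gene end. That of RPL4 lay at its far end, also within 1 kb of SNAPC5, and its start held CTCF in hypoxia alone (4.44). The best RPL23A peak lay past one end, also within 1 kb of TLCD1, and its other normoxia CTCF peaks had folds of 4.86 and 5.1.

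CTCF was held in both conditions by 59 members (72.8%, against 56.7% of all genes), in normoxia alone by RPL13A (6.13), RPL14 (5.21) and RPS23 (3.82) (5.19% of all genes were in that class), and in hypoxia alone by 3, among them RPS7 (4.72) and RPS15A (3.41) (2.86% of all genes). All 6 peaks were in the lowest 20% of their lists by fold. The 16 in neither list (19.8%, against 35.3% of all genes) included RPS27, RPS6 and RPS27A. Among genes with H3K27ac in both conditions, 72.5% of members and 75.6% of all genes were in both CTCF lists. Of the normoxia CTCF peaks at members 7 of 84 were normoxia-only (8.33% against 13%), led by RPL27 (9.83), RPLP0 (7.85), RPL13A, RPL14 and RPS23, and of the hypoxia CTCF peaks 7 of 82 were hypoxia-only (8.54% against 8.21%), among them RPS18 (6.4), RPS7, RPL4 (4.44) and RPS12 (4.17). With lists of equal length the counts were 3 of 71 (4.23% against 5.91%) and 14 of 82 (17.1% against 17.2%).

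CTCF was at the start of 33 of the 50 longer members in normoxia (66% against 58.7%) and 34 in hypoxia (68% against 56.8%), and at the far end of 12 (24% against 15.9%) and 11 (22% against 14.8%). ZHX2 and CTCF peaks overlapped at members about as often as elsewhere. Of the 54 normoxia ZHX2 peaks 37 overlapped a CTCF peak of the same condition (68.5%, against 67.3% of all gene-end ZHX2 peaks), and of the 95 hypoxia peaks 64 did (67.4% against 68.8%). Overlap with H3K27ac was 53 of 54 in normoxia (98.1% against 81.7%) and 95 of 95 in hypoxia (100% against 89.5%).

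The acetylated domains of the members were wide. The widest domain at each member had a median of 5152.5 bp in normoxia (n = 80 genes, 1478 to 14557 bp), against 2724 bp over all genes with H3K27ac, and 6170.5 bp in hypoxia (2004 to 15330 bp) against 2934 bp. Folds at the members were not high. The domain of highest fold at each member, not always the widest one, had median folds of 13.2 and 12.3, against 14.7 and 13.3 over all genes with H3K27ac. Among the 5 highest folds in normoxia were those at RPS29 (26.6), RPL6 (25), RPS27L (23.2) and RPL28 (22.7), and among the 5 highest in hypoxia those at RPS27L (24.1), RPL6 (22.4), RPS29 (22.3) and RPL28 (22.2). The domains ran into the gene: midpoints of the nearest domain were at a median of 1316 bp after the start in normoxia and 1577 bp in hypoxia, against 227 and 254 bp over all genes.

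An H3K27ac domain lay within 1 kb of the start of all 50 longer members in both conditions (100%, against 66% and 66.7%), and within 1 kb of the far end of 25 in normoxia (50% against 15.2%) and 36 in hypoxia (72% against 17.6%). The members are short genes, with a median length of 5015 bp against 24460 bp, and the part of gene length in these counts was not tested. The widest domain was wider in the hypoxia list than in the normoxia list at 64 of 80 members (80%, against 68.4% of 12644 genes), with a median ratio of 1.08 against 1.06. The ratio was highest at RPLP2 (5027 bp in normoxia, 12521 bp in hypoxia, ratio 2.49), RPL7A (6633 and 13255 bp, ratio 2) and RPL39 (3415 and 6139 bp, ratio 1.8), and lowest at RPS20 (0.823). These 4 were chosen after their values were seen.

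**Figure D5:**
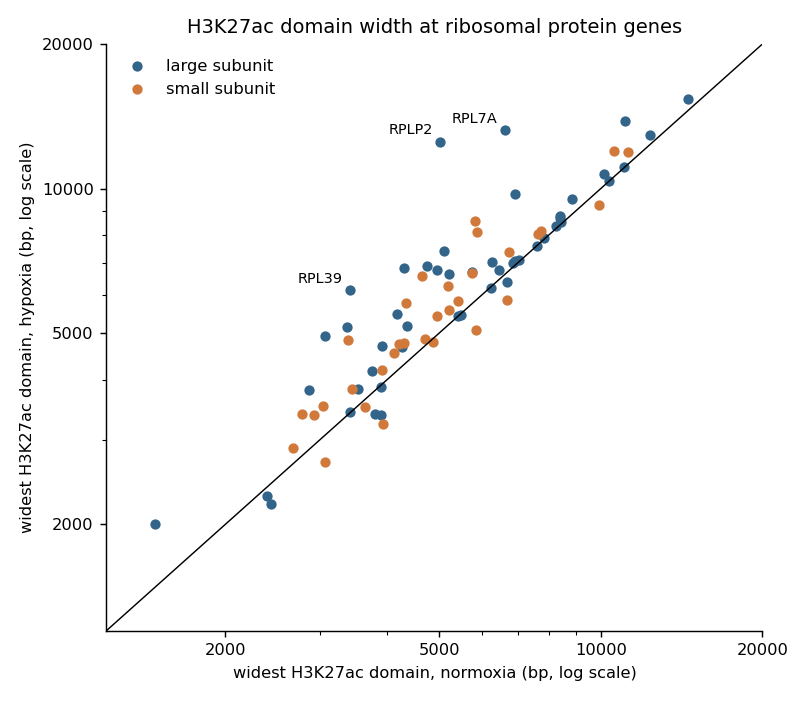
Width in bp of the widest H3K27ac domain within 1 kb of a gene end in normoxia (horizontal axis) and hypoxia (vertical axis), both on log scales, for the 80 members that had one. The line marks equal width: 64 points lie above it, and RPLP2, RPL7A and RPL39 lie farthest above.

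No member had H3K27ac in 1 condition alone: 0 were in normoxia alone (0.58% of all genes) and 0 in hypoxia alone (1.46%). Of the single domains, 0 of 92 were normoxia-only (1.81% of all gene-end domains), and 7 of 98 were hypoxia-only (7.14% against 5.31%). The 5 with the highest fold of these were at RPS7 (3.97), RPS9 (3.08), RPL37A (2.71), RPL32 (2.58) and RPL19 (2.5). They were short, with a median width of 440 bp, against 5481 bp for the shared domains.

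Flag peaks lay at 77 members in both WT and PA (95.1%, against 49.6% of all genes), at RPS10 and RPL39L in WT alone (8.78% of all genes were in that class) and at RPS4X in PA alone (0.479%), and RPL10L had none. Of genes with H3K27ac in both conditions, 96.2% of members and 75.4% of all genes were in both Flag lists. At RPS10 the WT peaks were 1096 and 239 bp wide. The PA peak at RPS4X was 267 bp wide and lay at the far end of the gene. The widest peak at a member had a median of 2062 bp in WT (n = 79 genes) and 2064 bp in PA (n = 78), and the 5 widest were the same in both lists: RPS2 (7177 bp), RPL23A (5778), RPL13A (4687), RPL36 (4611) and RPL10A (4569). Of the Flag peaks at members, 87 had exactly the same start and end in both lists, 80.6% of 108 WT peaks and 89.7% of 97 PA peaks. Over the whole lists 15163 intervals were identical, 48.5% of the WT list and 94.7% of the PA list. The sources used here do not say how these intervals were made, and widths in WT and PA were not read as separate measurements.

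WT-only Flag peaks made up 21 of the 108 at members (19.4%, against 26.1% of all gene-end peaks), at 16 large-subunit and 3 small-subunit genes. The widest were at RPL13 (2152 bp), RPL14 (1765), RPL23A (1581), RPS10 (1096) and RPS3 (1090). PA-only peaks made up 10 of 97 (10.3% against 2.55%), with a median width of 293 bp against 2038 bp for the shared peaks. The WT list held 31278 peaks and the PA list 16019. With the WT list reduced to its 16019 widest, 6 of 89 peaks were WT-only (6.74% against 11.7%) and 14 of 97 PA-only (14.4% against 7.34%). Removing WT peaks can only lower the WT-only count and raise the PA-only count. The PA-only peaks added in this way overlap a WT peak of the full list. The changed order of the 2 counts is therefore no result about WT and PA. In the full lists, the widest of the 10 PA-only peaks included those at RPLP0 (595 bp), RPLP2 (409), RPL8 (328) and RPL29 (298). Flag with WT was at the start of 49 of the 50 longer members (98% against 60.9%) and the far end of 12 (24% against 7.79%), and with PA at the start of 47 (94% against 52.2%) and the far end of 11 (22% against 5.54%). Of the 95 endogenous ZHX2 peaks in hypoxia, 92 overlapped a WT Flag peak (96.8%, against 80.4% of all gene-end ZHX2 peaks) and 88 a PA Flag peak (92.6% against 70.9%).

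Many members carry small nucleolar RNA (snoRNA) genes, which guide the modification of ribosomal RNA, in their introns. A snoRNA gene lay inside 29 of the 81 members (35.8%, against 2.64% of all protein-coding genes), with at most 4 in 1 gene. ZHX2 lay at 15 of these 29 in normoxia and 27 in hypoxia, and at 29 and 41 of the 52 members without a snoRNA gene.

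Other genes of the pathway were counted in the same way. Of 22 genes of translation factors and other TOP messenger RNAs, 13 held ZHX2 in normoxia (59.1%, against 29.6% of all genes) and 20 in hypoxia (90.9% against 56.2%). All 22 held H3K27ac in both conditions (64.3% and 65.2% of all genes) and Flag in WT and PA (58.4% and 50.1%). Among the 12644 genes with H3K27ac in both conditions, ZHX2 lay at 41.4% in normoxia and 81.1% in hypoxia. Flag lay at 86.9% of those genes with WT and at 76% with PA. The highest hypoxia ZHX2 folds among them were at EIF3E, an initiation factor subunit (8.71 in normoxia and 12.4 in hypoxia), and the elongation factor genes EEF1A1 (5.77 and 8.69) and EEF1D (2.77 and 8.18), followed by NPM1, nucleophosmin (3.87 and 6.17). Of 26 ribosome biogenesis genes, 6 held ZHX2 in normoxia (23.1%, against 29.6% of all genes) and 20 in hypoxia (76.9% against 56.2%). H3K27ac lay at 25 of the 26 in each condition, and both ZHX2 shares were below the 41.4% and 81.1% of acetylated genes. The highest ZHX2 folds in this set were at NOC2L (7.4 and 9.08), and then NOP56 (5.55), NOP58 (5.4) and WDR12 (4.91) in hypoxia. Of 77 mitochondrial ribosomal protein genes, 37 held ZHX2 in normoxia and 66 in hypoxia (48.1% and 85.7%), near the 54.3% and 84% of the cytosolic ones. Of the ribosomal proteins under other symbols, FAU (3.37 and 6.87) and RACK1 (3.47 and 5.59) held ZHX2 in both conditions.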

How the data were processed

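ChIP-seq peak lists of 8 groups were used, with groups taken from sample titles and antibody labels. The submitters' processing notes name cutadapt, Bowtie2, MACS2 and GRCh38 (hg38), without tool versions. Peak positions, the score, the fold enrichment (a ratio) and the −log10 q-values are the authors' deposited values, and the Flag lists hold positions alone. Pooling of replicates, the use of inputs and read depth are not given in the sources used here, and the precision of each peak is unknown. The 4 samples titled Flag without an antibody were not used.

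Gene ends came from a RefSeq table (GRCh38.p14), and strands and promoters from RefSeq promoter entries, found for 64 of 81 members. Only chromosomes 1 to 22 and X entered the counts, overlap meant at least 1 bp, and the best peak was the one of highest fold (widest for Flag). Counting was done in Python 3.11.15 with pandas 2.3.3, and the overlap steps were tested on simulated data. Named genes were the 5 highest or widest per list and per condition-only class, members in 1 list alone (up to 8), members in all 8 lists (up to 8), a fixed set of members and paralogs, and up to 4 per other list. A few genes that this rule takes are not reported here by name, and 2 plots leave them out. Members and lists were chosen with earlier results of these data known. Alternatives were windows of 3 kb, gene starts alone, the upper 50% of each list, a −log10 q of at least 5, lists of equal length, other overlap rules, members without the paralogs whose symbols end in L and, added after seeing the data, the paralogs outside the symbol rule.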

Additional observations from a re-analysis of the deposited data

How the results depend on the processing

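Of the counts of members with a peak, 35 stayed within 1.5 times under their alternatives and 3 did not: in the upper 50% of each list ZHX2 lay at 24 members in normoxia and CTCF at 38 in normoxia and 40 in hypoxia. Of the counts of members in 1 list alone, 30 stayed and 8 did not. With lists of equal length they were 7 and 16 for ZHX2 in normoxia and hypoxia, 1 and 6 for CTCF, and 1 and 3 for Flag in WT and PA. With gene starts alone, 5 of 64 were in the hypoxia CTCF list alone and 0 in the PA list alone. Of the condition-only peak counts, 17 stayed and 13 did not. With summits or midpoints within 250 bp they were 14 for ZHX2 in normoxia, 16 and 12 for CTCF, and 48 and 54 for H3K27ac. With lists of equal length they were 14 and 22 for ZHX2, 3 and 14 for CTCF, 4 for H3K27ac in hypoxia and 6 for WT Flag, beside 14 for PA Flag. With 50% of the shorter peak 3 H3K27ac domains were normoxia-only, and at a −log10 q of at least 5, 4 were hypoxia-only. The differences between subunits under 24 alternatives all lay inside the intervals reported for them, but their size and sign were not stable: hypoxia ZHX2 was 0.255 points with a 3 kb window, normoxia CTCF 5.23 and hypoxia CTCF -2.77 with gene starts alone, and PA Flag 3.23 without the paralogs whose symbols end in L and 2.87 with gene starts alone. Equal length removes peaks from the longer list by construction, and the upper 50% removes peaks from every list. A −log10 q of at least 5 removes the weaker peaks of the ZHX2 and H3K27ac lists. That cutoff takes no peak from either CTCF list, where the lowest values were 5 in normoxia and 5.09 in hypoxia. The CTCF counts under it are therefore among those that stayed by construction, and they are no check. The 4 later paralogs can add at most 4 to a count, too few to move any count of members with a peak by 1.5 times. Gene starts alone leave out far ends and the 17 members without a known strand. The cause of the other changes was not tested. No paired analysis was possible because each group has 1 peak list, and for the same reason no replicate could be left out.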
